A study of Rattus norvegicus with 30 samples.

Results

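The amino acid response is the programme with which cells meet a shortage of amino acids, and 8 of its genes were described here in rat liver: the transcription factors Atf4, Atf5 and Ddit3, the pseudokinase Trib3, and the enzymes Asns, Psat1, Phgdh and Chac1. Every probe set annotated to 1 of these symbols alone was taken, which gave 10 of the 31042 probe sets tested and 8 of the 14217 genes with a symbol of their own. Trib3 had 3 probe sets and each of the other genes had 1. No measured value entered this choice, although the genes were proposed with earlier results of the same arrays known.

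The left liver lobe was taken from 30 Sprague-Dawley rats, all females aged 10 weeks, and its RNA was hybridised to Affymetrix rat genome arrays, 1 array per rat. The 10 control rats were left unhandled and carry a 24 hr label. The 10 rats handled for 1 day, with the same label, and the 10 rats handled for 4 days, labelled 96 hr, were weighed, held in Broome restrainers, given water by oral gavage and bled from the tail vein. Euthanasia was on day 2 for the first and second group and on day 5 for the third. No unhandled rats of day 5 were studied, so that 4 days of handling and the later day cannot be told apart. All rats were of 1 strain and sex, were kept under the same conditions with free access to feed and water, and received no compound. The labels pool no animals, and each p-value below measures the spread between rats.

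Liver identity was plain on every array. The hepatocyte markers Alb, Ttr, Apoa1 and Serpina1 had mean intensities at the 99.8th percentile of all probe sets or higher, and their sum ran from 211 to 252 over the 30 rats. Macrophage markers moved somewhat with the groups, since the summed intensity of Clec4f, Cd68 and Cd5l ran from 13.9 to 23.3 in unhandled rats, from 14.6 to 24.5 with 1 day of handling and from 11.8 to 16.7 with 4 days; none of the 3 was at 0, and their part in the results was not tested. Signal at the 3′ end of Gapdh over that at its 5′ end, a sign of RNA integrity and labelling, also moved with handling. On the log2 scale it was 0.55 to 0.70 in unhandled rats, 0.66 to 0.83 with 1 day of handling and 0.70 to 0.96 with 4 days. Unhandled rats and rats handled for 4 days did not overlap in it. Fits below with this ratio as a covariate therefore cannot separate it from handling. In whole tissue, fewer cells of a type and less RNA per cell cannot be told apart. Control rats 1, 2 and 3 stood apart from the other 27 rats in genes of feeding and fasting: Scd, the desaturase of fat synthesis, was at 41.6 to 53.5 in them and at most 8.69 in any other rat, and Mt2A, a metallothionein, was at most 0.879 in them and at least 19.9 in any other rat. They are therefore given apart from control rats 4 to 10 throughout, as a description with no test between these rats. Handling was also tested in fits that leave out control rats 1, 2 and 3, and these are stated as such. Markers of other cells moved with these 3 rats as well. The summed intensity of the endothelial markers Stab2, Lyve1 and Pecam1 was 6.63 to 7.31 in them and 7.40 to 7.79 in control rats 4 to 10, with no overlap, though it ran from 6.39 to 8.96 in handled rats. That of 6 markers of exocrine pancreas had a median of 3.52 (1.98 to 5.36) in them and 1.41 (1.03 to 4.23) in control rats 4 to 10, most of it from Cpa1, a pancreatic carboxypeptidase (median 2.72 against 0.566). None of these markers was at 0, and their part in the results was not tested.

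As background, uncharged transfer RNA activates the kinase Gcn2, which phosphorylates the translation initiation factor eIF2. General translation then slows while Atf4 mRNA is translated more, and the ATF4 protein, paired with a C/EBP factor, switches on genes that make, import and charge amino acids. Stress of the endoplasmic reticulum feeds into the same factor through the kinase Perk. In liver the response is known from low-protein diets and from amino acid imbalance. Because much of the control of Atf4 lies in translation and that of its targets in transcription, an array reads the targets more directly than the factor.

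The DNA element to which C/EBP-ATF pairs bind is often written TGATGNAA. It was searched on both strands of the promoters of the 8 genes, from 250 bases before to 50 bases after the start site, in RefSeq sequences of build GRCr8. A second spelling, TTGCATCA, whose reverse complement is a form of the first and so can overlap it, was searched in the same way. TGATGNAA occurred in 1332 of 33469 promoters (3.98%) and TTGCATCA in 266 (0.795%). Chac1 and Trib3 held a match, which is a description of these letters and not of binding. No match lay in these windows of the other 6 genes. The matched stretches are shown because only these genes of the 8 held a match. Whether the element bears on their levels was not tested. Capitals mark the match. In Chac1 it begins at position -167 from the start and fits both spellings, and in Trib3 it begins at position -21 and reads TGATGTAA on the opposite strand.
Chac1, chr3:126795904-126796031, + strand: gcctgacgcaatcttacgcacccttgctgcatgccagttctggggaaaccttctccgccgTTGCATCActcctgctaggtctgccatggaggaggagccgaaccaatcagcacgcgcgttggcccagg
Trib3, chr3:161275534-161275614, - strand: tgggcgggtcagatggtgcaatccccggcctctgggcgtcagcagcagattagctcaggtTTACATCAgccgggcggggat

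Values are intensities on a linear scale with a mean of about 1 on each array, and they are not compared between genes, since probe sets differ in how well they bind. Differences are those of mean log2 intensity with the standard error of limma, and a probe set was called where its p, adjusted over all 31042, was under 0.1. Handling was compared with the same 10 control rats on both occasions, so the comparisons share them and are given side by side.

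Atf4 (1367624_at), the transcription factor at the centre of the response, varied little between groups. It was at 8.44, 7.43 and 8.26 in control rats 1, 2 and 3 and ran from 6.26 through a median of 6.97 to 9.69 in control rats 4 to 10. After 1 day of handling the lowest, median and highest values were 5.97, 6.89 and 7.90, and after 4 days 5.46, 7.08 and 8.25. The groups overlapped almost wholly. The difference from control was -0.12 ± 0.082 (log2, SE, n = 10 against 10, limma adjusted p = 0.695) after 1 day and -0.12 ± 0.082 (limma adjusted p = 0.630) after 4 days, with 95% intervals of -0.28 to 0.05 on both occasions. A fall of more than 0.28 and a rise of more than 0.05 lie outside these intervals.

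Atf5 (1372601_at), a related factor whose translation is also released by eIF2 phosphorylation, was at 8.82, 11.8 and 9.61 in control rats 1, 2 and 3 and from 11.1 through 12.2 to 14.8 in the other control rats. It ran from 10.4 through 13.0 to 13.9 after 1 day and from 12.2 through 13.7 to 15.6 after 4 days. Control rats 1 and 3 held the 2 lowest values of all 30 rats. The difference was 0.11 ± 0.078 (limma adjusted p = 0.693) after 1 day and 0.22 ± 0.078 (limma adjusted p = 0.247) after 4 days, so neither was called. No rat handled for 4 days was below the control median, but without control rats 1, 2 and 3 the difference was 0.12 (limma adjusted p = 0.557).

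Ddit3 (1369590_a_at) encodes CHOP, a factor induced by prolonged stress and linked to cell death. Its values were 0.402, 0.345 and 0.332 in control rats 1, 2 and 3, and 0.305, 0.379 and 0.708 were the lowest, median and highest in control rats 4 to 10. They were 0.217, 0.304 and 0.353 after 1 day and 0.239, 0.277 and 0.343 after 4 days. The groups overlapped only in part: all 10 rats of each handled group lay below the control median, and 6 of 10 after 1 day and 7 of 10 after 4 days lay below every control rat. The difference was -0.39 ± 0.11 (limma adjusted p = 0.231) after 1 day and -0.42 ± 0.11 (limma adjusted p = 0.112) after 4 days, both short of the threshold. Leaving out control rat 7, the lowest of the control rats at 0.305, took the 4-day difference past the threshold, to -0.45 (limma adjusted p = 0.0725). Over all single rats left out, that difference ran from -0.45 to -0.32 and its limma adjusted p from 0.0725 to 0.179. The value of 0.708 belonged to control rat 5. Control rats 1, 2 and 3 had little weight here, since the 4-day difference without them was -0.46 (limma adjusted p = 0.112). With the Gapdh ratio as a covariate it was -0.29 (limma adjusted p = 0.632), in a fit that cannot separate that ratio from handling.

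Trib3 encodes a pseudokinase that ATF4 and CHOP induce and that restrains both ATF4 and insulin signalling. Its probe set with the highest mean (1370695_s_at) was at 0.199, 0.136 and 0.236 in control rats 1, 2 and 3 and ran from 0.550 through 0.727 to 0.792 in control rats 4 to 10. The handled rats ran from 0.353 through 0.594 to 0.875 after 1 day and from 0.374 through 0.528 to 0.776 after 4 days. They overlapped control rats 4 to 10, with 4 of 10 after 1 day and 6 of 10 after 4 days below all of those 7, and 1 rat handled for 1 day was above every control rat. Control rats 1, 2 and 3 were below all 27 other rats on each of the 3 probe sets, and their mean was lower than that of control rats 4 to 10 by a factor of 3.82, 4.81 (1386321_s_at) and 4.13 (1370694_at). Probe sets whose name ends in s_at can detect more than 1 transcript, but the third, which does not, gave the same picture: 0.0810 to 0.0908 in control rats 1, 2 and 3 and 0.108 to 0.490 in the other 27 rats. The 3 probe sets of Trib3 correlated at r of 0.836 to 0.872 with each other over these 27 rats after group means were removed.

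The handling comparison of Trib3 turned on those 3 rats. With all 10 control rats the differences of the 3 probe sets were 0.23, 0.047 and 0.020 after 1 day and 0.16, -0.11 and -0.18 after 4 days, with limma adjusted p of 0.833 to 0.990. Without them, the differences were -0.35, -0.63 and -0.59 after 1 day and -0.42, -0.79 and -0.80 after 4 days. One of these, 1386321_s_at after 4 days, then fell (-0.79 ± 0.175, limma adjusted p = 0.0448), from a median of 0.793 in control rats 4 to 10 to 0.413, with 8 of 10 handled rats below all 7 of these control rats. The other probe sets were at limma adjusted p of 0.282 (1370695_s_at) and 0.143 (1370694_at) after 4 days and none was called after 1 day. The call of 1386321_s_at was lost when control rat 6 was also left out (limma adjusted p = 0.123). It was also lost when the Gapdh ratio was added (limma adjusted p = 0.172), though that fit cannot separate the ratio from handling.

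Asns (1387925_at), asparagine synthetase and the classic target of the response, was at 0.157, 0.164 and 0.204 in control rats 1, 2 and 3 and ran from 0.0559 through 0.120 to 0.233 in the other control rats. After 1 day it ran from 0.0531 through 0.0627 to 0.102 and after 4 days from 0.0332 through 0.0821 to 0.138. All 10 rats handled for 1 day and 9 of 10 handled for 4 days were below the control median, though only 3 and 2 of them were below every control rat, because control rat 6 was itself at 0.0559. The difference was -0.92 ± 0.241 (limma adjusted p = 0.190) after 1 day and -0.83 ± 0.241 (limma adjusted p = 0.143) after 4 days, the former a fold of 1.89. The probe set is dim, with a mean at the 44.8th percentile of all probe sets, and the size of the difference depended on an offset added before the log: it was -0.61 and -0.54 with an offset of 0.05 and -0.088 and -0.076 with an offset of 1. Without control rat 6 it passed the threshold on both occasions, at -1.06 (limma adjusted p = 0.0945) and -0.97 (limma adjusted p = 0.0782). Over all single rats left out, the difference ran from -1.06 to -0.83 after 1 day (limma adjusted p of 0.0945 to 0.327). The 4-day difference ran from -0.97 to -0.70 (limma adjusted p of 0.0782 to 0.236). Without control rats 1, 2 and 3 the 1-day and 4-day differences were -0.74 (limma adjusted p = 0.371) and -0.65 (limma adjusted p = 0.326), and with the Gapdh ratio as a covariate -0.90 (limma adjusted p = 0.535) and -0.80 (limma adjusted p = 0.513).

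Psat1 and Phgdh encode enzymes of serine synthesis from a glycolytic intermediate, Phgdh the first step and Psat1 the next. Psat1 (1372665_at) was at 0.311, 0.488 and 0.758 in control rats 1, 2 and 3, above every one of the other 27 rats. It ran from 0.0537 through 0.0838 to 0.274 in control rats 4 to 10, from 0.0208 through 0.0744 to 0.102 after 1 day and from 0.0431 through 0.0862 to 0.301 after 4 days. The 3 control rats were thus 5.39-fold above the other 7, in the direction opposite to Trib3. With them the difference was -1.21 ± 0.443 (limma adjusted p = 0.387) after 1 day and -0.62 ± 0.443 (limma adjusted p = 0.632) after 4 days; without them it was -0.48 (limma adjusted p = 0.786) and 0.11 (limma adjusted p = 0.953). Phgdh (1367811_at) gave no usable contrast. Its mean intensity was at the 1.45th percentile of all probe sets, from 0.0141 to 0.0450 over the 30 rats, and the file holds no detection calls that would say whether it was above background. Its differences were -0.16 ± 0.197 (limma adjusted p = 0.846) and -0.32 ± 0.197 (limma adjusted p = 0.558).

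Chac1 (1389573_at), which breaks down glutathione and is induced by ATF4, was at 0.328, 0.443 and 0.337 in control rats 1, 2 and 3 and ran from 0.413 through 0.703 to 0.908 in control rats 4 to 10. It was at 0.342, 0.471 and 0.764 as lowest, median and highest after 1 day, and at 0.255, 0.439 and 0.787 after 4 days. Control rats 1, 2 and 3 lay at the low end, as for Trib3, but overlapped the other control rats. The difference was -0.19 ± 0.205 (limma adjusted p = 0.820) after 1 day and -0.33 ± 0.205 (limma adjusted p = 0.565) after 4 days. It was -0.42 (limma adjusted p = 0.599) and -0.57 (limma adjusted p = 0.266) without the 3 rats.

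**Figure D1:**
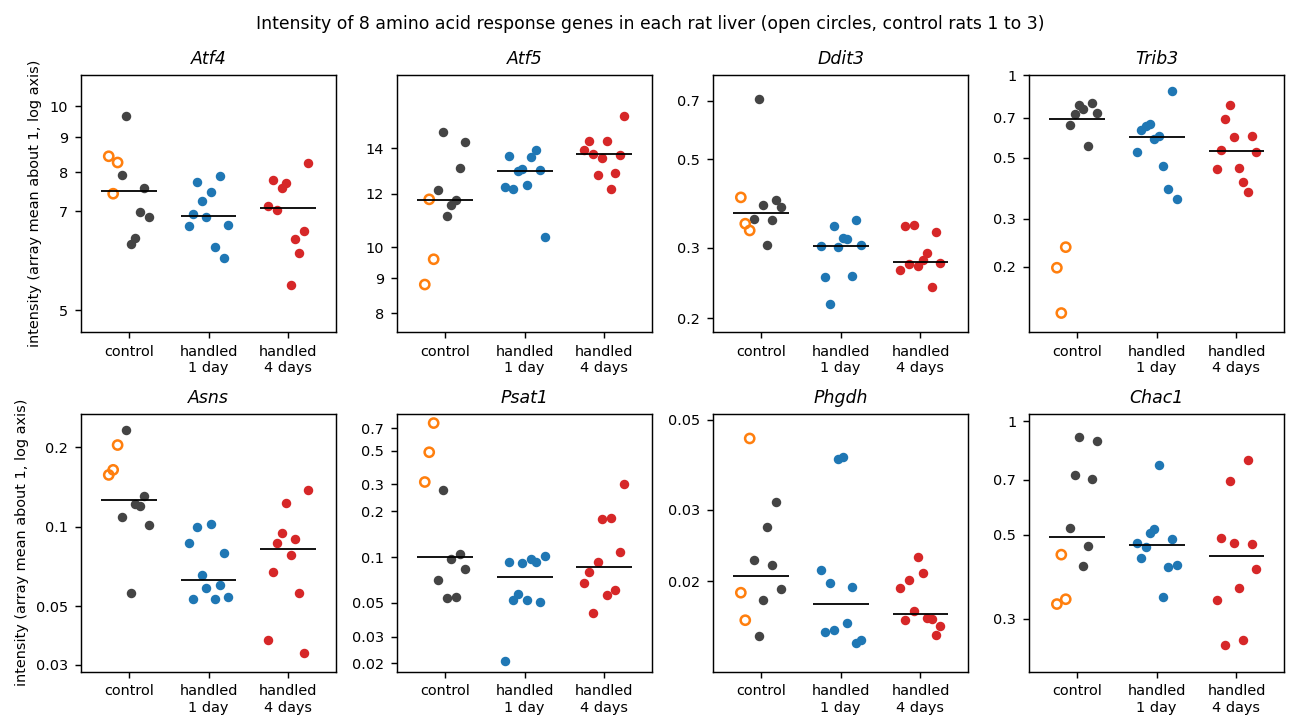
Intensity of the 8 genes in each rat on log axes (array mean about 1), 1 point per rat in order of replicate number, with the median of each group of 10 as a bar; Trib3 is shown by 1370695_s_at. Open circles are control rats 1, 2 and 3, which lie above all other rats in Psat1 (0.311 to 0.758) and below all in Trib3 (0.136 to 0.236).

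Over the 10 probe sets, none was called by limma in any comparison. The background was 28 of 31042 probe sets (0.0902%) after 1 day, 204 (0.657%) after 4 days and 0 (0%) between the handled groups. At an unadjusted p under 0.05 limma gave 3 of the 10 after 1 day (Asns, Psat1 and Ddit3), 3 after 4 days (Asns, Ddit3 and Atf5) and 0 between the handled groups, where 9.33%, 11.3% and 5.0% of all probe sets reached it. The methods' t-test was run here on log2 intensities, whereas the authors ran theirs on error-weighted log ratios to the control mean. At a p under 0.001 the t-test gave 1 of the 10 after 1 day (Asns) and 0 after 4 days, where 0.525% and 0.751% of all probe sets reached it. After Benjamini-Hochberg adjustment it gave 0 of the 10 in each, beside 0.177% and 0.49% of all probe sets. An exact rank-sum test gave 0 after 1 day and 1 after 4 days (Ddit3, adjusted p = 0.0665), beside 0.0902% and 0.499% of all probe sets. One probe set per gene, 6 of 8 genes were lower in each comparison with control, with a median difference of -0.17 after 1 day and -0.33 after 4 days beside -0.0035 and 0.0022 over all probe sets. Between the handled groups the median was -0.011, beside 0.0051 over all probe sets. The 95% intervals of that comparison ran from -0.40 to 0.58 for Asns and from -0.25 to 0.21 for Ddit3, so that a difference between 1 and 4 days was not shown for either.

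Leaving out control rats 1, 2 and 3 raised the calls over all probe sets to 102 after 1 day and 257 after 4 days. Of the 10 probe sets, 0 and 1 of them fell, beside 0.132% and 0.406% of all probe sets that fell. At an unadjusted p under 0.05 limma gave 5 and 6 of the 10 in that fit, where 8.50% and 11.4% of all probe sets reached it. The 3 correlated probe sets of Trib3 were among them on both occasions. With 1 probe set per gene it was 3 of 8 genes after 1 day (Asns, Ddit3 and Trib3) and 4 of 8 after 4 days (Chac1 as well). The median difference of the 8 genes was then -0.38 and -0.35.

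**Figure D2:**
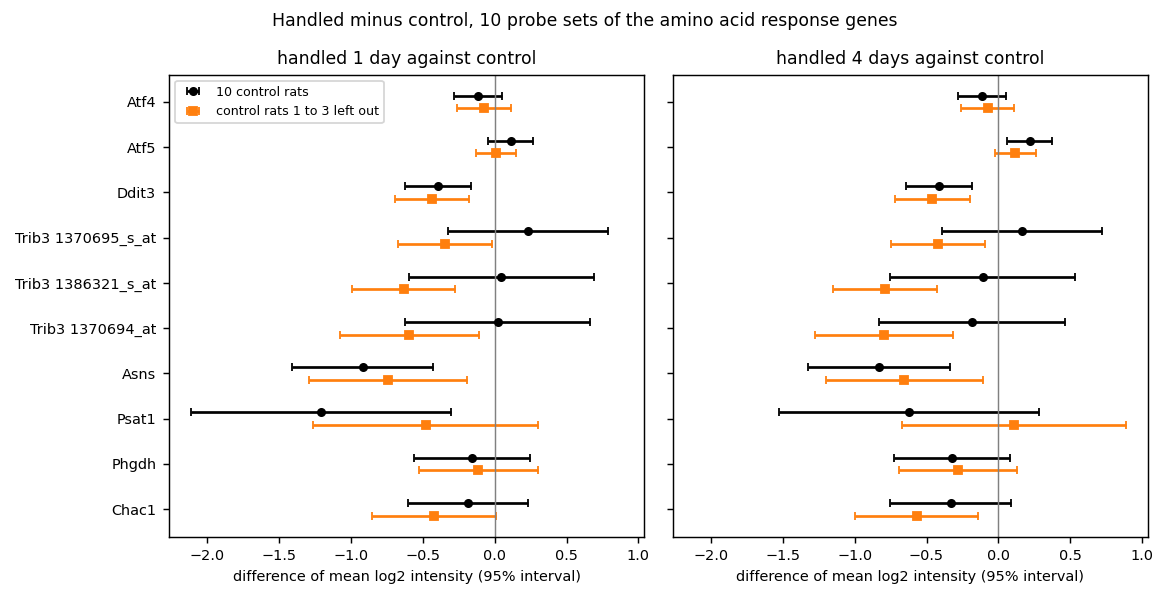
Difference of mean log2 intensity, handled minus control, for the 10 probe sets, with 95% intervals of limma, after 1 day (left) and 4 days (right). Black points use all 10 control rats and orange squares leave out control rats 1, 2 and 3, which moves Trib3 1386321_s_at after 4 days from -0.11 to -0.79 and Psat1 from -0.62 to 0.11.

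The wider pathway was read from lists of its other genes. In the sensor and feedback arm, 0 of 9 genes of the eIF2 kinases and phosphatase subunits were called in either comparison with all 10 control rats. Ppp1r15a, the stress-induced subunit that takes the phosphate off eIF2, was at 0.198 to 0.247 in control rats 1, 2 and 3, from 0.238 through 0.334 to 0.558 in the other control rats, from 0.191 through 0.281 to 0.380 after 1 day and from 0.154 through 0.226 to 0.287 after 4 days. Its difference was -0.17 ± 0.161 after 1 day (limma adjusted p = 0.786) and -0.47 ± 0.161 after 4 days (limma adjusted p = 0.232). Without control rats 1, 2 and 3 it fell after 4 days, at -0.67 (limma adjusted p = 0.0617). Eif2ak3, which encodes Perk, and Eif2ak4, which encodes Gcn2, were at -0.21 and -0.20 after 1 day (limma adjusted p = 0.489 and 0.533), and at -0.25 and -0.057 without control rats 1, 2 and 3.

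Among the amino acid transporters, Slc3a2 and Slc38a2 fell once control rats 1, 2 and 3 were left out. Slc3a2, the shared heavy chain of several amino acid exchangers, ran from 3.09 to 3.76 in control rats 1, 2 and 3 and from 3.59 through 4.96 to 5.84 in control rats 4 to 10. It ran from 3.04 through 3.43 to 3.86 after 1 day and from 2.75 through 3.50 to 4.24 after 4 days. With all control rats its differences were -0.29 ± 0.102 (limma adjusted p = 0.347) and -0.28 ± 0.102 (limma adjusted p = 0.251). Without those 3 it fell on both occasions, at -0.45 (limma adjusted p = 0.0446) and -0.44 (limma adjusted p = 0.0329). Slc38a2, a carrier of small neutral amino acids that is induced when they are scarce, fell after 4 days in that fit (-0.87, limma adjusted p = 0.0834) and was at -0.74 after 1 day (limma adjusted p = 0.221). In Slc38a2 those 3 rats lay below all of control rats 4 to 10, so leaving them out raised its control mean. Of 9 transporter genes, then, 0 and 0 were called with all control rats and 1 and 2 fell without control rats 1, 2 and 3. Of all probe sets, 0.132% and 0.406% fell in that fit.

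These calls were not firm. Leaving out 1 further rat in turn, of the 27, took the 4-day call of Slc3a2 away once (control rat 6), its 1-day call 4 times (control rats 5, 6, 9 and 10), that of Ppp1r15a 5 times (the same 4 control rats and rat 10 of those handled for 4 days) and that of Slc38a2 10 times (the same 4 control rats and rats 1, 3, 5, 6, 7 and 10 of those handled for 4 days). With the Gapdh ratio added, none of the 3 genes passed (limma adjusted p of 0.219 to 0.334). Because that ratio moved with handling, this fit cannot separate the ratio from handling. The part of RNA integrity and labelling in these falls was not tested.

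No gene of the remaining lists of the pathway was called in either comparison, with or without control rats 1, 2 and 3. Among the partner and feedback factors (5 genes) the smallest p was that of Cebpg, a C/EBP partner of ATF4, at 0.20 after 4 days (limma adjusted p = 0.310), followed by Cebpb at -0.22 (limma adjusted p = 0.386) and the stress factor Nupr1 at -0.27 after 1 day (limma adjusted p = 0.599). Without control rats 1, 2 and 3 Cebpg was at 0.064 (limma adjusted p = 0.758), Cebpb at -0.20 and Nupr1 at -0.23. Of the 9 genes of amino acid and one-carbon synthesis, Cbs, the first enzyme from homocysteine to cysteine, was at -0.36 after 1 day (limma adjusted p = 0.423), Psph, the last enzyme of serine synthesis, at -0.52 (limma adjusted p = 0.473) and Shmt2, the mitochondrial enzyme that splits serine, at -0.22 (limma adjusted p = 0.597). Without control rats 1, 2 and 3 the differences of Cbs, Psph and Shmt2 were -0.070, -0.051 and 0.033.

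The 13 aminoacyl-tRNA synthetases, which charge transfer RNA, were all lower after 1 day and 12 of them after 4 days, with 0 calls. Their median was -0.18 and -0.12, beside -0.0035 and 0.0022 over all probe sets. Vars1 was at -0.43 ± 0.126 (limma adjusted p = 0.248), Aars1 at -0.23 ± 0.069 (limma adjusted p = 0.251) and Lars1 at -0.22 ± 0.065 (limma adjusted p = 0.258) after 1 day. Without control rats 1, 2 and 3 these were at -0.35, -0.18 and -0.12. In that fit 11 of the 13 were lower after 1 day and 9 after 4 days. The median was then -0.062 and -0.014, beside -0.0083 and -0.0035 over all probe sets. Of the 7 hormones and brakes on growth, the stress cytokine Gdf15 was at -1.03 ± 0.352 after 4 days (limma adjusted p = 0.232), Ddit4, an inhibitor of mTORC1, at -0.63 ± 0.247 (limma adjusted p = 0.298) and the fasting hormone Fgf21 at 0.73 ± 0.357 after 1 day (limma adjusted p = 0.536). Leaving out the 3 rats took Gdf15 to -0.50 (limma adjusted p = 0.601), Ddit4 to -0.30 (limma adjusted p = 0.698) and Fgf21 to 0.41.

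In control rats 1, 2 and 3 Psat1 and Trib3 stood apart in opposite directions, and genes of the lists stood apart both ways too. The genes named in this paragraph and the next were chosen after their values were seen. Of the 8 genes, Psat1 (1 of 10 probe sets) lay above all of control rats 4 to 10 and above all 27 other rats, where 6.36% and 2.95% of all probe sets did so. The 3 probe sets of Trib3 lay below, where 7.53% and 3.03% did so. Of 9 genes of amino acid and one-carbon synthesis, 4 lay above all 27 other rats: Psph at 0.525 to 0.639 in the 3 rats and at most 0.274 elsewhere, Shmt2 at 2.70 to 4.12 and at most 2.27 elsewhere, Cbs at 6.26 to 7.01 and at most 4.27 elsewhere, and Aldh18a1, an enzyme of proline synthesis, at 0.174 to 0.184 and at most 0.156 elsewhere. None of that list lay below. Of the 13 synthetases, Cars1, Yars1 and Lars1 lay above, with Cars1 at 1.54 to 2.11 and at most 1.39 elsewhere. Gdf15 (0.394 to 0.611, at most 0.323 elsewhere) and Ddit4 (0.514 to 0.566, at most 0.505 elsewhere) lay above as well.

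Other genes went down with Trib3. Herpud1, a helper of protein disposal at the endoplasmic reticulum, was at 1.79 to 3.02 in these 3 rats and at 6.27 to 8.26 in control rats 4 to 10. The lowest handled rat, also at 3.02 when rounded, was just above them. Cebpg was at 1.84 to 2.29 and at least 2.50 elsewhere, and Impact, an inhibitor of Gcn2, at 0.416 to 0.428 and at least 0.435 elsewhere. Slc38a2 was at 1.41 to 2.12 and below all of control rats 4 to 10 (2.18 to 7.85) but not below all handled rats. Atf4 itself, at 7.43 to 8.44 in the 3 rats, lay inside the range of control rats 4 to 10. In the same 3 rats Fasn, fatty acid synthase, was at 10.4 to 28.7 and at most 1.30 elsewhere, Srebf1, its regulator, at 7.75 to 14.8 and at most 1.69 elsewhere, and Cpt1a, the entry step of fat oxidation, at 1.70 to 4.24 and at least 21.0 elsewhere. The part of feeding state in the differences of the amino acid genes was not tested.

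**Figure D3:**
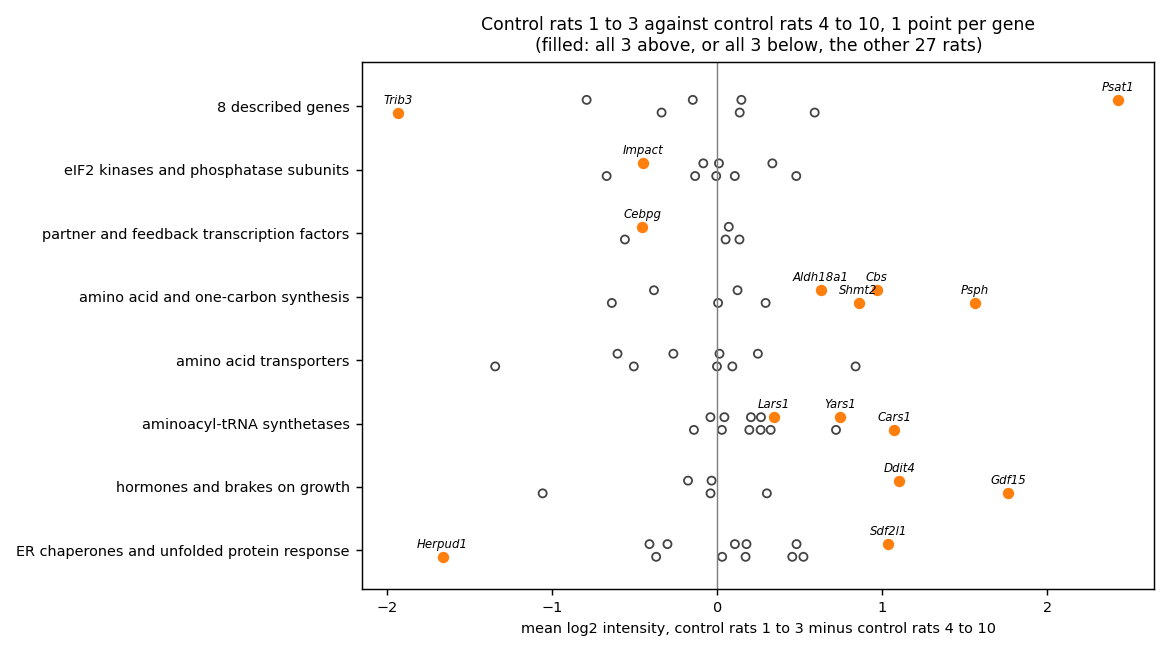
Mean log2 intensity of control rats 1, 2 and 3 minus that of control rats 4 to 10, 1 point per gene, by list; filled points with names are genes in which all 3 rats lay above, or all 3 below, the other 27 rats. Psat1 (2.43), Gdf15, Psph and Ddit4 lie far to the right and Trib3 (-1.93) and Herpud1 far to the left.

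Co-variation with Asns was read in the 27 rats other than control rats 1, 2 and 3, after the mean of each group was removed, so that neither the differences between groups nor those 3 rats entered it. No probe set varied with Asns at the threshold: limma called 0 of 31041 slopes (0%), and 0 of the 9 other probe sets of the 8 genes. Of the 9, Atf4 alone had an unadjusted p under 0.05 in that fit. Atf4 followed Asns most closely of the 7 other genes, with Pearson r = 0.503 (permutation p = 0.00797) and Spearman rho = 0.454 (permutation p = 0.019), n = 27, a limma adjusted p of 1.00 over all probe sets and an r above that of 99.6% of them. Within control rats 4 to 10 its r was 0.816, within the rats handled for 1 day 0.270 and within those handled for 4 days 0.384, positive in all 3. Without the pair of rats farthest from the Asns median, control rat 5 at 0.233 and rat 9 of those handled for 4 days at 0.0332, r was 0.373 (permutation p = 0.0664), so that the relation rested in part on them. Control rat 5 held the highest value of the 10 control rats in Asns, Atf4, Atf5 and Ddit3.

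The other genes followed Asns less. Over the same 27 rats r was 0.306 for Psat1, 0.238 for Atf5, 0.215 for Ddit3, 0.171 for Phgdh and -0.012 for Chac1, with permutation p of 0.119 to 0.952. The 3 probe sets of Trib3 were at 0.224, 0.037 and 0.109 (permutation p of 0.260 to 0.853). Psat1 and Asns were both dim. Their medians over the 27 rats were 0.084 and 0.086, where array medians ran from 0.118 to 0.125. Psat1 was not uniform over the groups: r was 0.848 within control rats 4 to 10 (rho 0.857), -0.754 within rats handled for 1 day (rho -0.842) and 0.497 within rats handled for 4 days (rho 0.491). The difference between these groups was not tested. Rat 1 of those handled for 1 day, whose Psat1 of 0.0208 was far below the others of its group, belongs to the second. Chac1 likewise stood at 0.672 within the rats handled for 1 day, at -0.288 within control rats 4 to 10 and at -0.088 after 4 days. In all, 9 relations were computed over the 27 rats, and each limma adjusted p over all probe sets was 1.00.

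**Figure D4:**
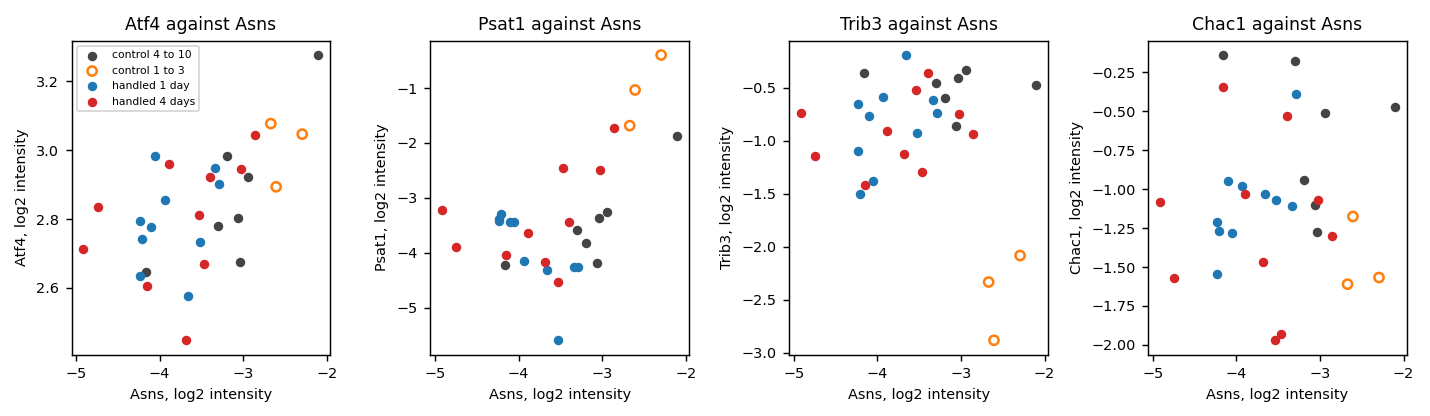
Log2 intensity of Atf4, Psat1, Trib3 (1370695_s_at) and Chac1 against that of Asns, 1 point per rat, with groups by colour and control rats 1, 2 and 3 as open circles. Atf4 rises with Asns (r = 0.503 over the 27 filled points after group means were removed), while the open circles lie above the other points in Psat1 and below them in Trib3.

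Among themselves, the 8 genes formed no single block over the 27 rats. Apart from the pairs of Trib3 probe sets, the highest r among the 10 were those of Asns with Atf4 (0.503), Atf4 with Psat1 (0.470), Chac1 with Trib3 (0.441 with 1370694_at, 0.410 with 1386321_s_at and 0.234 with 1370695_s_at) and Atf4 with Atf5 (0.400). Trib3 and Psat1 were at -0.12 to -0.082 and Chac1 and Psat1 at -0.068. These values are a description over 27 rats, and all points of a rat share its array.

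The genes most like Asns over the 27 rats were taken by the highest r, with 1 probe set per gene and above the median mean intensity. They were Zfp598, which senses collided ribosomes (0.691), Ttc19 (0.688), Eif2s2, a subunit of eIF2 (0.680), Rita1 (0.656), Mapk6 (0.654), Nrg1 (0.631), the synthetases Yars1 (0.599) and Gars1 (0.582), Hgh1 (0.590) and Tcf25 (0.581). The lowest were Phlpp1 (-0.64), Ciao2a (-0.62), Dpp8 (-0.61), Pja1 (-0.61) and Eef1akmt2 (-0.61). None was called, the smallest limma adjusted p being 0.829. By list, the synthetases had a median r with Asns of 0.473 and 11 of 13 were positive, against a median of 0.224 for the 7 other genes described here, -0.020 for amino acid and one-carbon synthesis, -0.025 for the transporters and -0.013 for all probe sets. The partner and feedback factors were at 0.276, the hormones and brakes on growth at 0.121 and the eIF2 kinases and phosphatase subunits at 0.104.

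**Figure D5:**
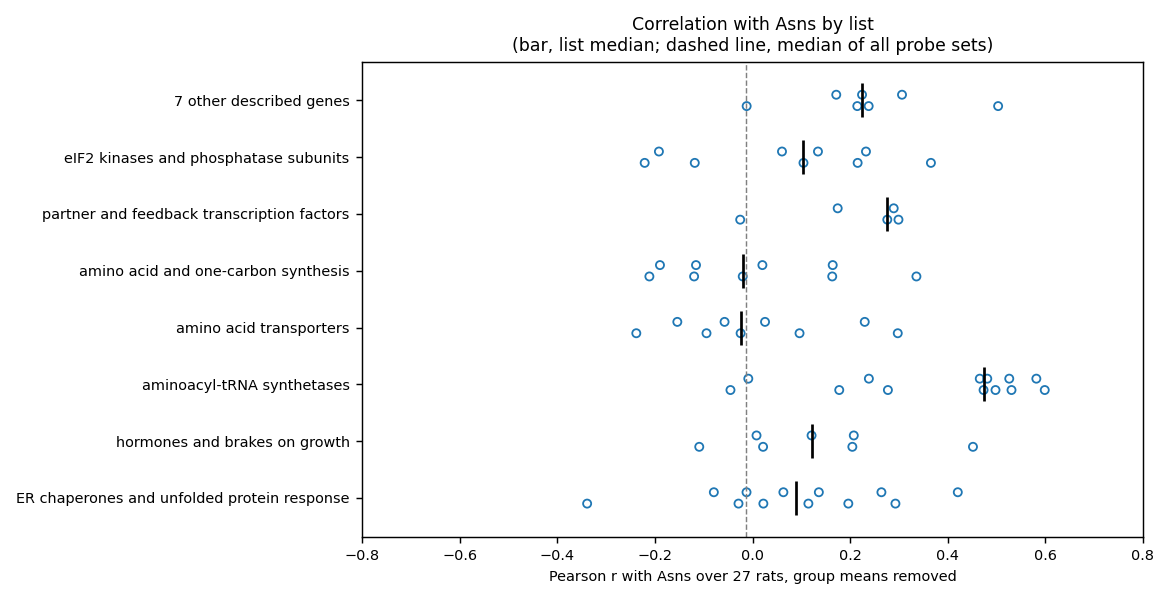
Pearson r with Asns over 27 rats after group means were removed, 1 point per gene by list, with the list median as a bar and the median of all probe sets as a dashed line. The aminoacyl-tRNA synthetases have the highest list median (0.473), and Atf4 is the point at 0.503 in the top row.

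Probe sets that vary with Trib3 were read as well. A slope on 1370695_s_at, fitted in the same way after the values had been seen, was called for 3 of 31041 probe sets (0.00966%): both other probe sets of Trib3, which measure the same gene, and Gpatch4 (r = 0.770, limma adjusted p = 0.0412). Atf4, Ddit3 and Chac1 were at 0.121, 0.247 and 0.234.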

How the data were processed

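RNA of 30 rat livers, 10 per group, was measured on Affymetrix Rat Genome 230 2.0 arrays. The values the authors deposited are linear intensity values, not logs, for each probe set on each array; the summarisation and scaling are not given in the sources used here, and array means of 1.01 were read from the values. The table held 31099 probe sets, from which 57 of Affymetrix's own controls were dropped. Of the 31042 tested, 20826 carried 1 symbol in GEO's platform annotation, 20758 of them found in the RefSeq table.

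Log2 was taken with no offset. The 3 groups entered 1 two-sided fit with lmFit and eBayes of limma 3.58.1 (R 4.3.3), Benjamini-Hochberg adjustment was over all probe sets, and calls were made at an adjusted p under 0.1. The slope on Asns was fitted with group terms in 27 rats, with 100000 permutations for r and rho. Correlations of 0.946 to 0.976 between arrays showed no duplicated array. The number of arrays limits the precision. Methods were tested on simulated data.

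The genes and lists were chosen with earlier results of these data known. Named were all probe sets of the 8 genes, in each other list the genes called against control and up to 3 more by smallest p, and the 10 highest and 5 lowest r with Asns above the median intensity; others are marked as chosen after their values were seen. Each listed gene is read from its brightest probe set by mean. Alternatives were offsets of 0.05 and 1, quantile normalization, dropping the dimmest 40%, an intensity trend, array weights, 2 groups per fit, a rank-sum test, the methods' t-test, the Gapdh ratio, a threshold of 0.05, the replicate number as a block, and leaving out rats. The authors kept all 30 samples, having found no quality measure against 3 control samples whose profiles differed slightly. Plots were made with matplotlib 3.10.9 under Python 3.11.15.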

Additional observations from a re-analysis of the deposited data

Results flagged for a closer look

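In 5 of 105 groups of 10 rats (the 10 probe sets described above and the listed genes named by rule, in each group), 1 rat stood far from the rest of its group, by a gap to its nearest neighbour that was larger, relative to the group's range on the log2 scale, than the critical value of Dixon's test. About 1 in 20 such groups is marked by chance. Ddit3 in control rat 5 was at 0.708, with the next rat at 0.402. Psat1 in rat 1 of those handled for 1 day was at 0.0208, with the next at 0.0503. Vars1 was also lowest in that rat, at 0.106, with the next at 0.184. Atf5 in rat 10 of those handled for 1 day was at 10.4, with the next at 12.2. Chac1 in rat 6 of the same group was at 0.764, with the next at 0.519.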

How the results depend on the processing

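The number of the 10 probe sets called after 1 day (0) became 1 with an offset of 1 and with the dimmest 40% left out (Asns in both), and ran from 0 to 1 when 1 rat was left out. After 4 days (0) it became 2 with an offset of 0.05 and with the dimmest 40% left out (Asns and Ddit3 in both), 1 with an offset of 1 (Asns), with the intensity trend and with the rank-sum test (Ddit3 in both), 1 without control rats 1, 2 and 3 (Trib3), 3 without them and with an offset of 0.05 (Ddit3 and 2 probe sets of Trib3), and 0 to 1 when 1 rat was left out. It stayed at 0 between the handled groups, and 0 slopes on Asns were called, in every alternative run. Beside these, 127 and 113 probe sets in all were called after 1 day (offset of 1, dimmest 40% left out), and 346, 490, 467, 370, 155, 257 and 405 after 4 days in the order just given. The dimmest 40% and the offsets change which probe sets are tested or how dim ones vary; otherwise the cause was not tested. Over all 31042 probe sets the calls, 28 after 1 day and 204 after 4 days, ran from 0 and 5 (Gapdh ratio as a covariate, both) to 147 (the 3 rats left out with an offset of 0.05) and 490 (dimmest 40% left out), and when 1 rat was left out from 1 to 44 and from 86 to 307. The 2 combinations with the 3 rats left out were chosen after seeing the data.

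Trib3 turned its sign after 1 day: 1370695_s_at from 0.23 to -0.037 with array weights, -0.22 by rank-sum test, and -0.35, -0.30 and -0.32 without the 3 rats (alone, with the Gapdh ratio, with an offset of 0.05); 1386321_s_at from 0.047 to -0.057 with an offset of 1, -0.28 with array weights, -0.33 by rank-sum test, and -0.63, -0.69 and -0.58 without the 3 rats; 1370694_at from 0.020 to -0.024 and -0.031 with offsets of 0.05 and 1, -0.24 with array weights, -0.22 by rank-sum test, and -0.59, -0.58 and -0.50 without the 3 rats. After 4 days 1370695_s_at went from 0.16 to -0.12, -0.39, -0.42, -0.37 and -0.38 in the same order, and Psat1 from -0.62 to 0.11, 0.58 and 0.083 without the 3 rats. Slopes on Asns turned with all 30 rats for Atf5 (-0.0027) and Trib3 (-0.16, -0.30 and -0.21), and that of Chac1 to 0.16 without group terms and 0.042 by Spearman. With 1 rat left out, signs turned within -0.18 to 0.15 and -0.15 to 0.14 (Trib3 1386321_s_at and 1370694_at, 1 day), -0.039 to 0.24 (Trib3 1370695_s_at, 4 days), between handled groups -0.012 to 0.22 (Asns), -0.027 to 0.039 (Atf4), -0.072 to 0.0068 (Ddit3) and -0.15 to 2.3e-05 (Trib3 1370695_s_at), and for slopes -0.038 to 0.16 (Ddit3), -0.054 to 0.15 (Trib3 1386321_s_at) and -0.071 to 0.090 (Chac1).

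Replicate numbers share only a number: 1 of 30 same-numbered pairs correlated over 0.1 (-0.038 to 0.12). With the replicate block 0 of the 10 probe sets were called in each comparison and 0 with the slope on Asns, and the slopes of Trib3 1386321_s_at and Chac1 turned to -0.015 and 0.013. A second Asns probe set, planned as an alternative, does not exist in the annotation and was not run.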

Other observations

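The endoplasmic reticulum arm was read from 12 chaperones and genes of the unfolded protein response. None was called by limma in either comparison with control, and 1 after 1 day and 0 after 4 days had an unadjusted p under 0.05. After 4 days 10 of 12 were higher, with a median difference of 0.057 beside 0.0022 over all probe sets, and after 1 day 4 of 12 were, with a median of -0.071. Xbp1, a factor of that response, was at 0.19 after 1 day (limma adjusted p = 0.523), Pdia4, a disulphide isomerase, at -0.13 (limma adjusted p = 0.607) and Sdf2l1, a cofactor of chaperones, at -0.28 (limma adjusted p = 0.625); without control rats 1, 2 and 3 they were at 0.074, -0.095 and 0.031.

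Of 9 genes of feeding state, Scd fell after 4 days (-2.45 ± 0.628, limma adjusted p = 0.0908) and was at -1.28 without control rats 1, 2 and 3 (limma adjusted p = 0.288). Angptl4, a fasting-induced inhibitor of lipoprotein lipase, was at 0.50 after 1 day (limma adjusted p = 0.231), Cpt1a at 1.02 (limma adjusted p = 0.465) and Mt2A at 1.71 (limma adjusted p = 0.473); without those 3 rats they were at 0.33, -0.033 and -0.10. Fasn and Srebf1 were highest in control rats 1, 2 and 3, so leaving those rats out lowered the control mean of both genes. With all control rats, no gene of this list was called as higher. In the fit without those 3 rats, Fasn and Srebf1 rose after both 1 and 4 days. Leaving out 1 further rat of the 27 in turn ended none of these calls. Those fits all lacked control rats 1, 2 and 3 as well, so they do not test the choice to leave them out. Fasn and Srebf1 were named after their values were seen.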
